A study of Mus musculus with 13 samples.

Results

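The cytosolic ribosome is built from a large (60S) and a small (40S) subunit, whose proteins are encoded by ribosomal protein genes. Most ribosomal protein mRNAs begin with a short run of pyrimidines, the 5′ terminal oligopyrimidine (TOP) tract, through which mTOR signaling controls their translation. Lymphocytes that leave the resting state make more ribosomes before they divide. The genes were chosen by name, as entries named *Rpl* or *Rps* with a number and the few suffixes used in the family, together with *Rplp0*, *Rplp1*, *Rplp2* and *Rpsa*, with a summed count of at least 1000 in each of the count tables. Of 24417 named genes in each table, 85 had such a name and 79 reached the minimum, 47 named for the large and 32 for the small subunit. The subunit was taken from the name alone, also for paralogues such as *Rpl7l1*. All 79 passed the filter on low counts in both tables.

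Of the 6 genes left out, *Rpl26* summed to 403 counts over the male and 723 over the female libraries, and *Rps4l* to 6125 and 406, reaching it in the male table alone. *Rpl39l*, a paralogue of *Rpl39*, summed to 356 and 45 counts, *Rpl3l* to 18 and 6, *Rpl10l* to 1 and 0, and *Rpl32l* to 0 in both. Among the genes kept *Rpl36a* had the lowest sum in both tables, with 6479 and 2093 counts. The next lowest was *Rpl22l1* in the male table, with 7782 counts, and *Rpl39* in the female table, with 2539.

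The libraries came from sorted TCRβ+CD4+ cells of pooled spleen and lymph nodes of C57BL/6 mice. The male mice were all treated at 14 days of age with 1 dose of 4-OHT, an active metabolite of tamoxifen, and were analyzed at 21 days of age, 7 days later. Control Treg cells (n = 3) came from healthy *Foxp3* DTR-GFP*Cd4* creERT2 males, in which a GFP-tagged receptor for diphtheria toxin is made from the *Foxp3* gene. Rescued Treg cells (n = 3) came from *Foxp3* LSL*Cd4* creERT2 males, in which a tamoxifen-activated Cre recombinase, expressed from the *Cd4* locus, removes a STOP cassette from *Foxp3*. Male Treg “wannabes” (n = 2), cells with an active *Foxp3* locus but without Foxp3 protein, came from diseased *Foxp3* LSL*Cd4* wt males, which carry no such recombinase. The female mice were 9 to 11 weeks old and all received diphtheria toxin 7, 5, 3 and 1 days before analysis. Resting “wannabes” (n = 3) came from *Foxp3* LSL/WT*Cd4* wt females, whose Treg cells survive the toxin, and activated “wannabes” (n = 2) from *Foxp3* LSL/DTR*Cd4* wt females, whose Treg cells the toxin depletes. Libraries held between 25556783 and 36659638 counts on named genes. Sex, age and treatment differ between the male and female tables and cannot be told apart, so levels are compared within a table.

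Markers of the sorted cells were high in every library. Of the 6 CD4 T cell markers, 5 are in the tables and all 5 were detected throughout, at a summed level of 3699 to 5875 CPM (counts scaled to the library size, corrected with edgeR's TMM factors), with *Lck* the most abundant. All 5 Treg cell markers were detected in every library. In males they summed to 2854 to 3980.5 CPM in Treg cells and to 1720 and 1750 CPM in “wannabes”. In female “wannabes” the sum was 1492 to 1966 CPM. Among males *Foxp3*, *Ikzf2* and *Ctla4* were higher in Treg cells without overlap. *Il2ra* overlapped, at 354 to 525 CPM in rescued Treg cells and 349 and 367 CPM in “wannabes”. *Tnfrsf18* overlapped too, at 475 to 602 CPM in Treg cells and 334 and 596 CPM in “wannabes”. *Foxp3* itself stood at 169, 225 and 259 CPM in control Treg cells, at 843, 900.2 and 1081.5 CPM in rescued Treg cells, at 86.2 and 95.1 CPM in male “wannabes” and between 52.7 and 75.2 CPM in the female libraries. Some defining markers of other lineages were at or near 0, and others were detected at low levels. *Cd8a* stayed at or below 0.540 CPM and *Ms4a1* at or below 0.428 CPM, while the 5 B cell markers summed to 9.81 to 42.0 CPM, mostly from *Cd79b*, with *Cd79a* at up to 10.5 CPM. *Klra8* and *Pf4* had no count in any library. The 6 myeloid markers summed to at most 12.4 CPM, with *Itgam* at up to 10.7 CPM in control replicate 3, the 3 NK cell markers to at most 6.73 CPM, and the 4 erythroid and platelet markers in the tables to at most 16.2 CPM, in resting replicate 3. The 4 plasma cell markers summed to 32.1 to 336 CPM, of which *Xbp1*, which T cells also express, was the most abundant. *Jchain* reached 19.9 CPM in resting replicate 3, where *Mzb1* had 2.24 CPM, and *Sdc1* reached 7.77 CPM in resting replicate 2. *Cd8b1* made up nearly all of the 9.73 to 26.5 CPM of the CD8 T cell markers.

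A few libraries stood apart in the ribosomal protein genes. Of the male libraries, “wannabe” replicate 2 had the highest level of 71 of the 79 genes and “wannabe” replicate 1 that of the other 8. Rescued replicate 3 had the lowest level of 75 genes. Replicate 2 of the male “wannabes” lay above replicate 1 for 71 genes and below it for 8, with a median log2 ratio of 0.49 between these libraries of the same group. In the female table, resting replicate 1 had the lowest level of 74 genes, activated replicate 1 the highest of 41 and resting replicate 2 the highest of 32. Between replicates of a group the chi-square statistic over all genes was 13.8 to 152 times its degrees of freedom. It covers counting error only, with reads taken as independent molecules, and is no test of agreement between separate samples.

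Ribosomal protein mRNAs took up a small share of each library. Their summed counts were 1.62%, 1.55% and 1.44% of the library total in control Treg cells (1.54% ± 0.0891, SD, n = 3). In rescued Treg cells they were 1.40%, 1.55% and 1.099% (1.35% ± 0.231, SD, n = 3). The 2 male “wannabe” libraries held 1.88% and 2.38% (2.13% ± 0.352, SD, n = 2). Both “wannabe” libraries thus lay above all 6 Treg libraries, while control and rescued Treg libraries overlapped. In females the share was 0.839%, 1.01% and 0.935% in resting “wannabes” (0.928% ± 0.0850, SD, n = 3) and 1.03% and 0.977% in activated “wannabes” (1.00% ± 0.0391, SD, n = 2), with overlap between the groups. A share of sequenced RNA does not give the amount per cell, and fewer cells of a type and less RNA per cell cannot be told apart in bulk samples. The nuclear RNA *Malat1* was lowest in the male “wannabes” among the male libraries, with 0.137%, 0.151% and 0.186% of counts in control Treg cells, 0.103%, 0.110% and 0.128% in rescued Treg cells and 0.0828% and 0.0497% in male “wannabes”. In females the shares did not overlap either, with 0.189%, 0.201% and 0.183% in resting and 0.116% and 0.101% in activated “wannabes”, and its part in the share of ribosomal protein mRNAs was not tested.

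**Figure D1:**
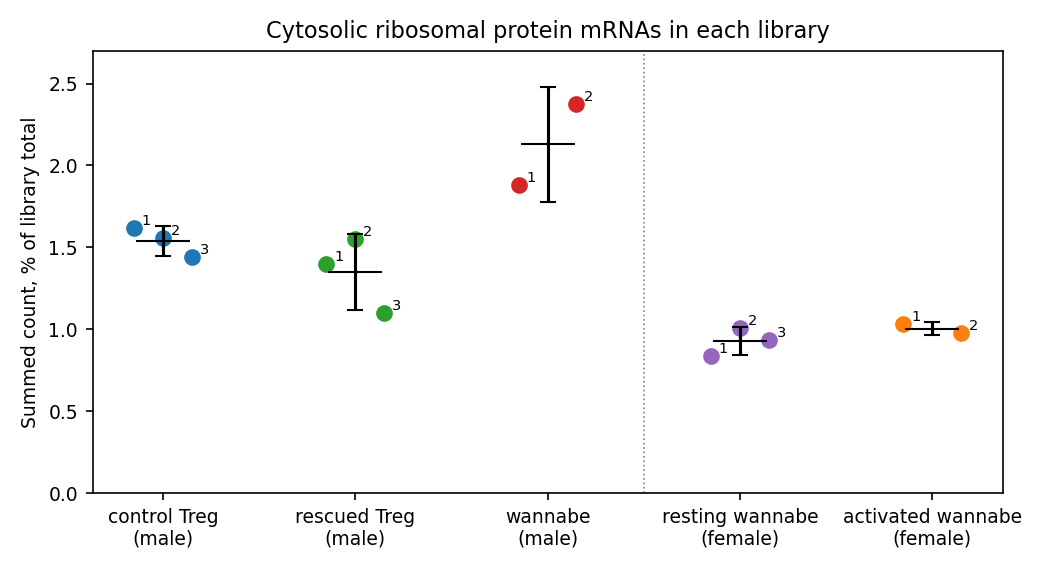
Summed count of the 79 ribosomal protein genes as percent of the library total, 1 point per library with its replicate number, and the mean ± SD of each group as horizontal and vertical bars. Male “wannabes”, at 1.88% and 2.38%, lie above the 6 male Treg libraries, and the female groups, measured in a separate table, overlap.

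The 2 subunits can be set against each other within a library. The summed counts of large subunit genes were 1.49 ± 0.0226 (SD, n = 3) times those of small subunit genes in control Treg cells. The same ratio was 1.49 ± 0.0456 (SD, n = 3) for rescued Treg cells and 1.46 ± 0.00953 (SD, n = 2) for male “wannabes”. In females the ratio was 1.62 ± 0.0369 (SD, n = 3) in resting and 1.62 ± 0.0178 (SD, n = 2) in activated “wannabes”. The ratio of control Treg cells differed from that of male “wannabes” by more than the SD of either group, which was not tested. The other differences within a table were smaller than the larger SD of the groups compared.

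Single genes varied far more in level than the groups did. Scaled per kilobase of transcript, the mean level over the male libraries had a median of 176 CPM per kilobase. Among the highest were *Rpl4*, a core protein of the large subunit, at 802 CPM per kilobase and *Rpl32*, also of the large subunit, at 784. The lowest were *Rps20* at 34.2, *Rpl36a* at 51.7 and *Rpl22l1* at 53.7 CPM per kilobase. In the female libraries the range was 35.0-fold, with *Rpl4* at 605 and *Rpl13* at 488 CPM per kilobase among the highest and *Rps20* at 17.3, *Rpl39* at 27.8 and *Rpl36a* at 29.2 at the bottom. The only coding transcript annotated for *Rps20* spans 3706 bases, far more than for the other genes, so its level per kilobase is uncertain.

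Ribosomal protein genes have many processed pseudogenes, and reads could be split between near-identical copies. A median of 60% of a gene's runs of 50 bases also occurred in transcripts of another annotated gene, and 51 of the 79 genes shared at least 50% of their runs. *Rps27* shared 98.7% of its runs with the retrogene *Rps27rt*, and *Rps3a1* shared 71.0% with other genes, 61.4% with *Rps3a2* alone. *Rps3* shared 2.96%. *Rpl26*, one of the genes below the minimum, shared 71.3%. How the authors counted reads with several matches is not given in the sources used here, so the levels of all but the least shared genes are uncertain. Across the 79 genes, which all share the same libraries, Spearman's correlation between the level per kilobase and the shared percentage was -0.0130 for the male table and -0.0283 for the female table. Entries named as pseudogenes took between 3635 and 6612 counts per male library.

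**Figure D2:**
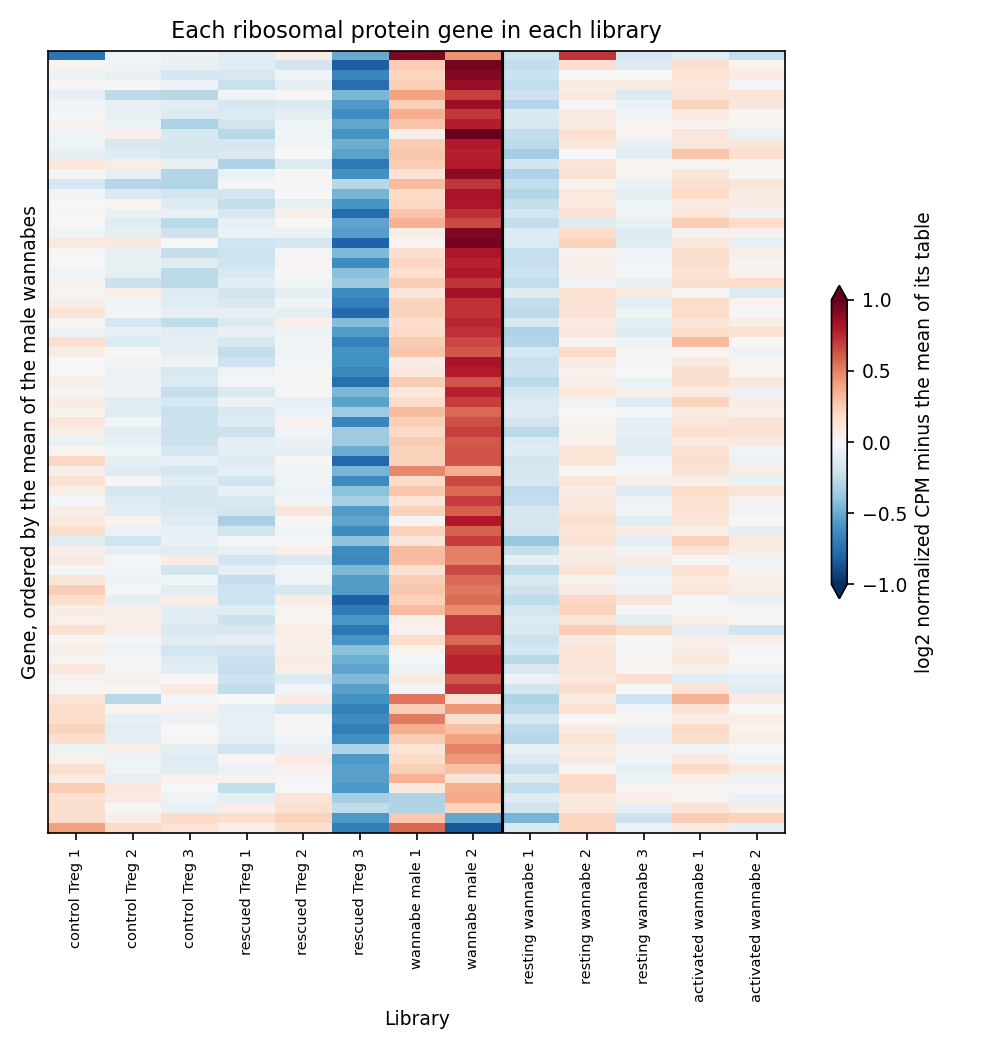
Level of each of the 79 ribosomal protein genes (vertical axis, ordered by the mean of the male “wannabes” and not named) in each of the 13 libraries (horizontal axis), as log2 normalized CPM minus the gene's mean over the libraries of its table, with the male table left and the female table right of the line. Male “wannabe” replicate 2 is highest for 71 genes and rescued replicate 3 lowest for 75, under TMM scaling.

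Control Treg cells were compared with male “wannabes” to see how cells of healthy mice with Foxp3 differ from cells of diseased mice without it. Across all 14925 genes tested, 6.27% were called lower and 9.92% higher in control Treg cells (the Benjamini-Hochberg adjusted quasi-likelihood test of edgeR, adjusted p under 0.05), and of the 79 ribosomal protein genes 11 were called, all lower. At an unadjusted p under 0.05 in edgeR, 44 of the 79 passed, where 31.2% of all genes did, and by DESeq2 28 passed, where 25.6% did. The median log2 fold change of the 79 genes was -0.50, against 0.09 over all genes tested, and 3 of the 79 fold changes were positive. This direction held under every scaling but that to the summed count of the family. That scaling sets the family's sum equal in all libraries by construction, so it cannot test the family's direction. Under it the family's median was 0.03 and that of all genes moved to 0.59. The same shift of all genes enters each list scaled to the family below. Libraries did not overlap, with control Treg cells lower, for 66 of the 79 genes, against 20.7% of all genes. The median was -0.50 for both the large and the small subunit, of which 7 and 4 genes were called. Over 3304 other genes of like transcript length, 389 to 1600 bases, the median was -0.096.

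Among small subunit genes, *Rpsa*, which encodes the laminin receptor protein of the 40S subunit, had 453, 418 and 414 CPM in control Treg cells and 634 and 834 CPM in male “wannabes”. Its libraries did not overlap and replicate 2 of the “wannabes” was the highest. *Rpsa* was lower in control Treg cells (log2 fold change -0.78, SE 0.16, adjusted p = 0.0079 by the Benjamini-Hochberg adjusted quasi-likelihood test of edgeR, lower in all 3 libraries than in both “wannabes”). It passed the test in 15 of the 16 alternatives run, all but the scaling to the family. *Rps3a1*, a protein near the mRNA exit of the 40S subunit, had 153, 244 and 243 CPM in control Treg cells and 485 and 346 CPM in “wannabes”. Here “wannabe” replicate 1 was the higher one and control replicate 1 stood well below the other controls. *Rps3a1* had the largest fall of the family (log2 fold change -0.96, SE 0.24, adjusted p = 0.0214 by the same Benjamini-Hochberg adjusted test of edgeR, all 3 control libraries below both “wannabes”). Without control replicate 1 its log2 fold change was -0.77 and without “wannabe” replicate 1 -0.70, and neither passed the test (adjusted p = 0.0651 and 0.113 in edgeR).

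Among large subunit genes, *Rpl14* had 253, 224 and 221 CPM in control Treg cells and 354 and 431 CPM in “wannabes”. It was lower in all 3 control libraries (log2 fold change -0.76, SE 0.18, adjusted p = 0.0157 by the Benjamini-Hochberg adjusted quasi-likelihood test of edgeR). *Rplp0*, the protein that anchors the acidic P1 and P2 proteins of the ribosomal stalk, had 1009.9, 848 and 822 CPM in control Treg cells and 1169 and 1616 CPM in “wannabes”. It was lower without overlap (log2 fold change -0.64, SE 0.17, adjusted p = 0.0273 by the same Benjamini-Hochberg adjusted test of edgeR). The stalk proteins *Rplp1* and *Rplp2* had log2 fold changes of -0.70 and -0.71, and did not pass the test (adjusted p = 0.0737 and 0.0637 in edgeR), although their libraries did not overlap. *Rpl4* had 1237, 1113 and 1035 CPM in control Treg cells and 1499.5 and 1789.5 CPM in “wannabes”, and was lower with a log2 fold change of -0.54. *Rpl29*, *Rpl8*, *Rpl13a* and *Rpl3* were also called, with log2 fold changes from -0.67 to -0.56. With 1 library left out they ranged from -0.90 to -0.45, -0.89 to -0.44, -0.94 to -0.35 and -0.73 to -0.42.

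The number of genes called in this comparison rested on single libraries. It was 36 without “wannabe” replicate 1 and 2 without “wannabe” replicate 2. It was 4, 2 and 2 without control replicates 1, 2 and 3 and 3 without rescued replicate 2, a library of neither group, which takes part in the scaling and in the estimate of the spread. The median log2 fold change of the family lay between -0.73 and -0.30 in all of these fits. Shares of all genes called in the same fits are not given here, so these counts cannot be set against the background.

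Rescued Treg cells were compared with the same 2 “wannabe” libraries, so both comparisons rest on the same “wannabe” values and are given side by side. Of all genes tested 4.06% were called lower and 10% higher in rescued Treg cells, and of the 79 ribosomal protein genes 37 were called, all lower (the Benjamini-Hochberg adjusted quasi-likelihood test of edgeR). At an unadjusted p under 0.05 in edgeR, 72 of the 79 passed, where 28% of all genes did, and by DESeq2 62 passed, where 23.2% did. The median log2 fold change was -0.67, against 0.00 over all genes tested, and 2 of the 79 were positive; scaled to the summed count of the family, the median was -0.03, that of all genes 0.64, and 6 named genes that had been called turned positive. Libraries did not overlap, with rescued Treg cells lower, for 70 of the 79 genes, against 20.7% of all genes. Large subunit genes had a median of -0.67 with 21 called, and small subunit genes a median of -0.71 with 16 called. Over the other genes of like transcript length the median was -0.16.

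*Rps26*, which lies at the mRNA exit channel of the small subunit, had 86.7, 81.8 and 52.8 CPM in rescued Treg cells and 111 and 182 CPM in male “wannabes”. Rescued replicate 3 was the lowest and “wannabe” replicate 2 the highest, and the groups did not overlap. *Rps26* had the largest fall of the family (log2 fold change -0.99, SE 0.25, adjusted p = 0.0226 by the Benjamini-Hochberg adjusted quasi-likelihood test of edgeR, lower in all 3 rescued libraries). *Rpl35*, near the exit tunnel of the large subunit, had 86.1, 93.8 and 59.2 CPM in rescued Treg cells and 118 and 183 CPM in “wannabes”, and was lower with a log2 fold change of -0.92. *Rpl12*, at the base of the stalk, had 80.6, 91.1 and 60.5 CPM in rescued Treg cells and 119 and 172 CPM in “wannabes”, and was lower with a log2 fold change of -0.91. In each of these genes the same libraries were at the extremes. Leaving out 1 library gave -1.30 to -0.64 for *Rps26*, -1.21 to -0.61 for *Rpl35* and -1.16 to -0.66 for *Rpl12*. Among the genes called, *Rpl36*, *Rps3a1* and *Rplp2* followed with log2 fold changes of -0.89, -0.88 and -0.87. With 1 library left out these ranged from -1.29 to -0.39, -1.14 to -0.62 and -1.19 to -0.52. *Rpl36* passed the test in 6 of 16 alternatives. *Rpl4* was lower with a log2 fold change of -0.63 (SE 0.15, adjusted p = 0.0151 by the Benjamini-Hochberg adjusted quasi-likelihood test of edgeR), and passed the test in 14 of 16 alternatives.

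The count of 37 again moved with single libraries. It was 2 without rescued replicate 3 and 2 without “wannabe” replicate 2, the libraries at the ends of the range. It was 8 without rescued replicate 1, 17 without rescued replicate 2, and 15, 17 and 17 without control replicates 1, 2 and 3, and it rose to 53 without “wannabe” replicate 1. A fit of only the 2 groups called 3. The median of the family stayed between -0.89 and -0.49 with any 1 library left out. For these fits too the shares of all genes called are not given here, so the background of the counts is open.

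Rescued and control Treg cells were compared with each other to see what sets Treg cells made in inflamed mice apart from those of healthy mice. These groups also differ in *Foxp3* allele and in when Foxp3 was first made. None of the 79 ribosomal protein genes passed the Benjamini-Hochberg adjusted quasi-likelihood test of edgeR, where 2.3% of all genes did. At an unadjusted p under 0.05 the count was 0 of 79, where 16.1% of all genes passed, and by DESeq2 it was 0 of 79, where 8.16% passed. The median log2 fold change was -0.16, against -0.03 over all genes tested, and scaled to the family it was -0.06 with an all-gene median of 0.12. Under TMM scaling only *Rpsa*, *Rps3a1* and *Rpl14* had positive log2 fold changes, of 0.16, 0.09 and 0.06. Libraries did not overlap, with rescued Treg cells lower, for 10 of the 79 genes, against 11.6% of all genes, a share close to the background. The widest gap among named genes was that of *Rpl12*, at 107, 104 and 94.5 CPM in control and 80.6, 91.1 and 60.5 CPM in rescued Treg cells, with a log2 fold change of -0.40 that did not pass the test (adjusted p = 0.361 in edgeR). The median of the family was between -0.28 and -0.03 with any 1 library left out. Over the other genes of like transcript length the median was -0.02. The test does not show that the groups have equal levels.

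**Figure D3:**
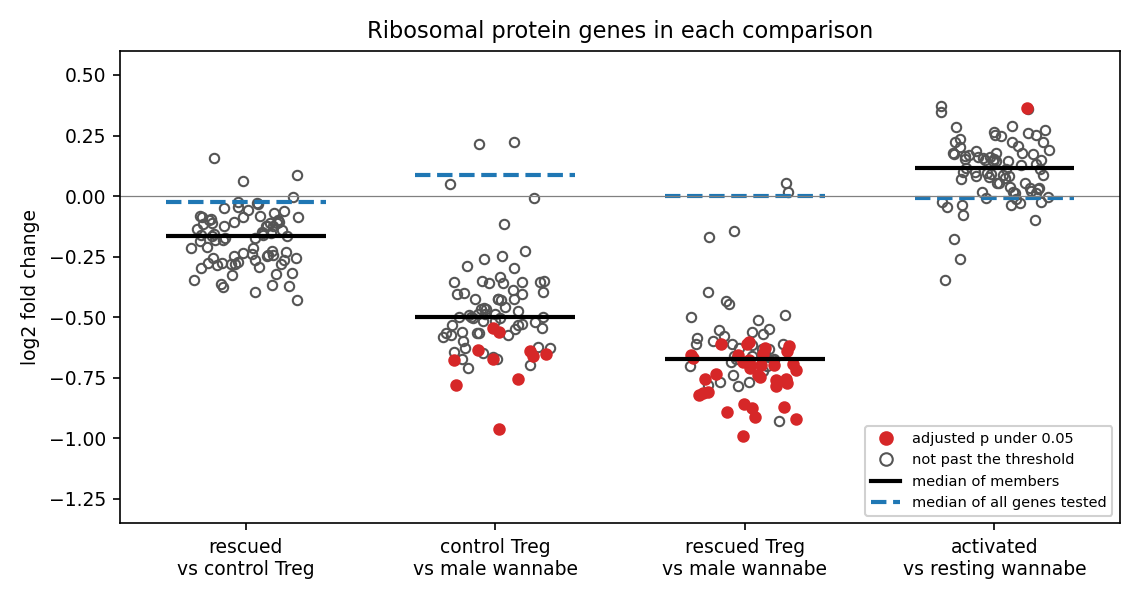
Log2 fold change of each of the 79 ribosomal protein genes (points) in each of the 4 comparisons, filled where the adjusted p of edgeR was under 0.05, with the median of the family (solid bar) and of all genes tested (dashed bar). The family's medians were -0.16, -0.50, -0.67 and 0.11 under TMM scaling. Scaling to the summed count of the family holds that sum equal by construction, so it cannot test these directions. Under it the median of control Treg cells against male “wannabes” was 0.03 and that of activated against resting “wannabes” -0.0074.

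Activated and resting “wannabes” were compared in the female table to see how cells without Foxp3 differ between females depleted of Treg cells and females that kept them. Of 13166 genes tested 11.3% were called higher and 11.2% lower in activated “wannabes”, and of the 79 ribosomal protein genes 1 was called, as higher (the Benjamini-Hochberg adjusted quasi-likelihood test of edgeR). At an unadjusted p under 0.05 in edgeR, 5 of the 79 passed, where 38.1% of all genes did, and by DESeq2 3 passed, where 26.6% did, so these counts lie below the background. The median log2 fold change was 0.11, against -0.01 over all genes tested, and 65 of the 79 were positive, against 49.4% of all genes. Over 2877 other genes of like transcript length the median was 0.055. Scaled to the family, the median of the 79 genes was -0.0074 and that of all genes -0.14. Libraries did not overlap, with activated “wannabes” higher, for 22 of the 79 genes, against 27.9% of all genes, so this count lies close to the background.

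The 1 call was lost in edgeR without activated replicate 1 and also without activated replicate 2. The count was 7 without resting replicate 2 and 2 without resting replicate 1, and the shares of all genes called in these fits are not given here. *Rplp0* had 478, 555 and 544 CPM in resting and 638 and 646 CPM in activated “wannabes”, and its log2 fold change, 0.29, did not pass the test (adjusted p = 0.0557 in edgeR). *Rpl29* had the largest positive log2 fold change of the named genes, 0.37, and did not pass either (adjusted p = 0.0771 in edgeR). *Rps3a1* had 98.7, 188 and 102 CPM in resting and 106 and 97.7 CPM in activated “wannabes”, and resting replicate 2 alone stood out.

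Whether the difference of rescued from control Treg cells departed from that of activated from resting “wannabes” was tested with 1 contrast. It was fitted to the 13 libraries together, and sex, age and treatment cannot be told apart from cell state in it. Within each pair inflammation cannot be told apart from the *Foxp3* genotype of the mice. In rescued Treg cells it cannot be told apart from *Foxp3* restored 7 days earlier either. None of the 79 genes passed the Benjamini-Hochberg adjusted quasi-likelihood test of edgeR, where 1.53% of all genes did. At an unadjusted p under 0.05 the count was 0 of 79, where 13.8% of all genes passed, and by DESeq2 it was 0 of 79, where 5.54% passed. The median difference of log2 fold changes was -0.28, against -0.03 over all genes tested, and 2 of the 79 were positive. Over 3384 other genes of like transcript length the median was -0.07. Scaled to the family, that of the 79 genes was -0.04 with an all-gene median of 0.24.

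Several ribosomal proteins are known for roles beyond the common ribosome. *Rpl22*, which supports T cell development, had 78.7, 75.3 and 67.2 CPM in control Treg cells, 58.8, 74.2 and 51.1 CPM in rescued Treg cells and 74.7 and 128 CPM in male “wannabes”. It overlapped between control Treg cells and “wannabes”. Its paralogue *Rpl22l1* had 37.5, 32.5 and 31.1 CPM in control Treg cells, 29.4, 31.5 and 17.5 CPM in rescued Treg cells and 42.0 and 15.7 CPM in male “wannabes”. The “wannabe” libraries were the highest and the lowest of the male table, so that *Rpl22l1* and *Rpl22* differed between them in opposite directions. *Rpl39*, at the exit tunnel, also differed between the male “wannabes”, with 39.0 and 22.6 CPM, against 33.7 to 36.9 CPM in control Treg cells and 36.3, 38.0 and 21.7 CPM in rescued Treg cells. *Rpl22l1* and *Rpl39* had the only positive log2 fold changes, 0.22 and 0.21, beside *Rps2* at 0.05, between control Treg cells and “wannabes”, and none passed the test.

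*Rpl5* and *Rpl11*, which together with 5S rRNA bind Mdm2 and stabilize p53, had log2 fold changes of -0.34 and -0.50 between control Treg cells and “wannabes” and did not pass the test (adjusted p = 0.317 and 0.115 in edgeR). *Rps6*, the substrate of the S6 kinases, had 258, 233 and 230.2 CPM in control Treg cells, 237, 259 and 162 CPM in rescued Treg cells and 309 and 355 CPM in male “wannabes”. Control Treg cells and “wannabes” did not overlap, and its log2 fold change of -0.47 did not pass the test (adjusted p = 0.134 in edgeR). *Rps27a*, made as a fusion with ubiquitin, and *Rps27l*, a p53-inducible paralogue of *Rps27*, had log2 fold changes of -0.29 and -0.40 in the same comparison, and neither passed. *Rps19*, mutated in Diamond-Blackfan anemia, was lower in rescued Treg cells than in “wannabes” with a log2 fold change of -0.81. With 1 library left out this value ranged from -1.13 to -0.45, and the call was kept in 9 of 16 alternatives. Between control Treg cells and “wannabes” the log2 fold change of *Rps19* was -0.53 and did not pass.

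The names do not cover every component of the ribosome. Of *Fau*, *Rack1* and *Rpl36al* the first 2 were tested, and *Rpl36al* had no count. *Rack1*, a scaffold protein on the 40S subunit, was lower in control Treg cells (log2 fold change -0.65, adjusted p = 0.0136) and in rescued Treg cells (log2 fold change -0.68, adjusted p = 0.0112) than in male “wannabes” (the Benjamini-Hochberg adjusted quasi-likelihood test of edgeR), and *Fau* did not pass. The shares of all genes called lower were 6.27% and 4.06%. Neither call of *Rack1* was kept when the libraries were scaled to the family. Of the 6 pseudogene entries 3 were tested, and 1 was lower in control Treg cells than in “wannabes”, where 6.27% of all genes were. It was *Rpl14-ps1*, which shares 49.3% of the runs of *Rpl14*, with a log2 fold change of -0.76, a call that was lost when scaled to the family and in 4 of the 8 fits that left out 1 library. The call of *Rack1* in control Treg cells was lost in 1 of these 8 fits.

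TOP tracts are also found in mRNAs of translation factors and RNA-binding proteins. Of 16 such genes 3 were called between control Treg cells and male “wannabes”, all lower in control Treg cells, where 6.27% of all genes were called lower. Their median log2 fold change of -0.36 turned to 0.13 when scaled to the family, where 2 were called, both higher, and 17.1% of all genes were called higher and 1.25% lower. The 3 called under TMM scaling were the elongation factors *Eef2* (-0.83) and *Eef1d* (-0.64) and the RNA-binding protein *Hnrnpa1* (-0.82). The log2 fold change of *Hnrnpa1* was -0.47 without “wannabe” replicate 1 and -1.14 without “wannabe” replicate 2. In rescued Treg cells 5 were lower than in “wannabes”, among them *Eef1b2* (-0.77) and *Eef1g* (-0.74), and 1 was higher, the initiation factor subunit *Eif3f* (2.52), where 4.06% and 10% of all genes were. Without rescued replicate 1 the log2 fold change of *Eif3f* was 1.89. The median of the list, -0.35, turned to 0.27 when scaled to the family, where 2 were called, both higher, and 19.2% of all genes were called higher and 0.355% lower. Between rescued and control Treg cells 0 of 16 passed edgeR's test, 1 had an unadjusted p under 0.05 and 1 was called by DESeq2, where the shares of all genes were 2.3%, 16.1% and 8.16%. In activated “wannabes” 5 of the 16 were called against resting ones, all higher, where 11.3% of all genes were, with a median of 0.24 that was 0.11 when scaled to the family, where 2 were called, both higher, and 6.33% of all genes were called higher and 10.5% lower. The 5 called under TMM scaling included the histone chaperone *Nap1l1* (0.69), *Hnrnpa1* (0.68), nucleophosmin *Npm1* (0.36) and the poly(A)-binding protein *Pabpc1* (0.34). With 1 library left out, the call of *Hnrnpa1* was lost in 5 of 8 fits, that of *Eef1d* in 4 and that of *Eef1g* in 3 in the male comparisons named, and in females that of *Npm1* in 3 of 5 fits and those of *Hnrnpa1* and *Pabpc1* in 2.

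Initiation factors were called in both directions under TMM scaling. Of 27 genes, 4 were higher and 6 lower in control Treg cells than in male “wannabes”, where 9.92% and 6.27% of all genes were. Scaled to the family 6 were called, all higher, where 17.1% of all genes were, and the median turned from -0.22 to 0.24. Under TMM scaling the genes called included *Eif3b* at 1.68, *Eif5* at 1.52, *Eif3j1* at 1.31 and *Eif6*, which keeps the subunits apart, at -0.77 on the log2 scale. *Eif3j1* was at 2.06 without “wannabe” replicate 1, and its call was lost without “wannabe” replicate 2 (0.77), control replicate 1 (1.30) or control replicate 3 (1.24). In rescued Treg cells 2 were higher and 6 lower than in “wannabes”, where 10% and 4.06% of all genes were. Scaled to the family 5 were called, all higher, where 19.2% of all genes were, and the median turned from -0.30 to 0.28. Between rescued and control Treg cells only 1 of 27 was called by edgeR, where 2.3% of all genes were. It was the helicase *Eif4a2*, with a log2 fold change of -0.71 under TMM scaling. This call was lost when scaled to the family and without any 1 of the 6 libraries compared. *Eif4a2* was also lower in activated than in resting “wannabes”, by -0.73. In activated “wannabes” 5 of 27 were higher and 4 lower, where 11.3% and 11.2% of all genes were, and scaled to the family 1 was higher and 2 lower, where 6.33% and 10.5% of all genes were. Of 5 repressors of translation, 1 was higher and 1 lower in rescued Treg cells than in male “wannabes”, where 10% and 4.06% of all genes were. They were *Eif4ebp2*, which holds back the cap-binding factor eIF4E (0.96), and *Larp1*, which binds TOP tracts (-0.77), whose call was lost when scaled to the family. Under that scaling 2 of the 5 were called, both higher, where 19.2% of all genes were, and the median moved from 0.14 to 0.84. *Larp1* was also the 1 repressor called in activated “wannabes”, where it was higher (0.57), as were 11.3% of all genes, again not when scaled to the family. With 1 library left out the calls of *Eif4ebp2* and *Larp1* in rescued Treg cells were each lost in 3 of 8 fits, and that of *Larp1* in females in 2 of 5. Between control Treg cells and “wannabes” 0 of 5 passed edgeR's test, 4 had an unadjusted p under 0.05 and 1 was called by DESeq2, where 31.2% and 25.6% of all genes were. Scaled to the family 3 of the 5 were called, all higher, where 17.1% of all genes were, and the median moved from 0.39 to 0.90.

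Ribosome biogenesis genes encode factors that process rRNA and assemble the subunits. Of 43 biogenesis genes, 1 was higher and 9 lower in control Treg cells than in “wannabes”, where 9.92% and 6.27% of all genes were, and scaled to the family the median turned from -0.36 to 0.15 and 2 were called, both higher, where 17.1% of all genes were. Under TMM scaling *Mybbp1a* (-0.98), *Wdr12* (-0.95) and *Rrp12* (-0.78) were among those lower, and *Gar1* was higher (1.22). With 1 library left out the call of *Rrp12* was lost in 7 of 8 fits, that of *Wdr12* in 3 and that of *Gar1* in 1. In rescued Treg cells 2 were higher and 16 lower than in “wannabes”, where 10% and 4.06% of all genes were, with a median log2 fold change of -0.54 that turned to 0.10 when scaled to the family, where 3 were called, all higher, against 19.2% of all genes. Between rescued and control Treg cells 0 of 43 passed edgeR's test, 6 had an unadjusted p under 0.05 and 3 were called by DESeq2, where 2.3%, 16.1% and 8.16% of all genes were. In activated “wannabes” 2 of 43 were higher, *Ncl* (0.37) and *Wdr12* (0.35), and 3 lower, among them *Sbds* (-0.39), where 11.3% and 11.2% of all genes were, and scaled to the family 3 were called, all lower, where 10.5% of all genes were. With 1 library left out the call of *Wdr12* was lost in 4 of 5 fits, that of *Sbds* in 3 and that of *Ncl* in 2. Of 78 genes of mitochondrial ribosomal proteins 77 were tested, and 7 were called between control Treg cells and “wannabes”, all higher in control Treg cells, a share close to the 9.92% of all genes called higher, among them *Mrps30* (1.79), *Mrps24* (1.62), *Mrps26* (1.41) and *Mrpl3* (1.34), although the median of the 77 was -0.28 and turned to 0.24 when scaled to the family, where 9 were called, all higher, against 17.1% of all genes. The call of *Mrps30* was lost in 5 of 8 fits with 1 library left out. In rescued Treg cells 7 were higher and 1 lower than in “wannabes”, where 10% and 4.06% of all genes were, and the median turned from -0.40 to 0.24 when scaled to the family, with 8 called, all higher, against 19.2% of all genes. In activated “wannabes” 5 were higher and 2 lower than in resting ones, where 11.3% and 11.2% of all genes were, and scaled to the family 3 were called, all lower, against 10.5% of all genes, and the median turned from 0.06 to -0.07. Between rescued and control Treg cells 0 of 77 passed edgeR's test, 5 had an unadjusted p under 0.05 and 3 were called by DESeq2, against the same 2.3%, 16.1% and 8.16%.

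The promoters of the family were read from RefSeq on GRCm38.p6, from 250 bases before to 50 after the annotated start. Of the 79 genes 59 had an entry, with 70 promoters, against 32851 promoters of all genes. On either strand, CCGGAAG, a motif of ETS family factors such as GABP, was found in 25 of the 70 (35.7%, against 8.86% of all). AAGATGG, the core of the YY1 motif, was found in 12 (17.1%, against 6.34%), and GGGCGG, the GC box, in 44 (62.9%, against 35.7%). The end of CCGGAAG and the start of AAGATGG can overlap. TATAAA was found in 7 (10%, against 13.6%). A C at the annotated start followed by at least 4 pyrimidines, the form of a TOP tract, was present in 13 of the 70 (18.6%, against 2.51%). The rule needs a C at the annotated base itself. The windows of *Rpl7a* and *Rpl27a* hold pyrimidine runs across the start and are not counted. A start without a counted tract is therefore no sign that the mRNA lacks one. These motifs were chosen after earlier results of the data were known, and a match is not a measured site.

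The tracts of 5 genes are shown, for genes described above or of known role, each with 25 bases on the strand of the gene. Capitals mark the pyrimidine run that begins at the annotated start.
Rps6: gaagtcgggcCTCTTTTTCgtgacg
Rplp2: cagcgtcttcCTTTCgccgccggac
Rpl14: ggccctctctCTTCTCgctgagcgc
Rpl35: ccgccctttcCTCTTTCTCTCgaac
Rps27: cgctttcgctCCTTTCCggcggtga
The windows lie at chr4:86857353-86857377 (*Rps6*, minus strand), chr7:141447641-141447665 (*Rplp2*, plus strand), chr9:120571507-120571531 (*Rpl14*, plus strand), chr2:39005117-39005141 (*Rpl35*, minus strand) and chr3:90213634-90213658 (*Rps27*, minus strand) of GRCm38.p6, across the start of the first exon and its 5′ untranslated region. The annotated starts of *Rpsa* and *Rps3a1* carry no run of this length, which does not show that their mRNAs lack a tract.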

How the data were processed

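Bulk RNA-seq libraries, amplified with the SMART-Seq v4 kit, were used from 8 male and 5 female samples. The deposited values are counts per gene that the authors did not normalize. STAR 2.7.3a served the authors for alignment to GRCm38, GATK for local realignment and R for the counting; the annotation, the strand setting and the handling of reads with several matches are not given in the sources used here. The 4 of 24421 entries without a name, with 0.00579 to 0.00638% of counts, were left out. Library totals lay between 25556783 and 36659638 counts. The reads carry no molecular identifiers, and the study's methods give as many female mice as female libraries and call the male libraries biological replicates.

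The male and the female table were fitted separately with edgeR 4.0.16 (R 4.3.3, limma 3.58.1; TMM, filterByExpr, quasi-likelihood F test, Benjamini-Hochberg over all genes tested, threshold 0.05), after the code was tested on simulated data; DESeq2 1.42.0, other scalings, filters and member lists, the replicate number as a block and leaving out each library were alternatives. Figures were drawn with matplotlib 3.10.9 in Python 3.11.15 with pandas 2.3.3. Lengths are those of the shortest principal coding transcript in GENCODE M21, a choice made after transcript lengths were seen. Named genes are up to 6 called genes of largest change in each direction and comparison, genes fixed by role, the 3 highest and 3 lowest per kilobase, and those beside the minimum of 1000 counts, and up to 4 called genes of each other list; *Rps2* and *Fau* were named after their values were seen. Some genes that this rule takes are not reported here. The members, lists and motifs were chosen with earlier results of these data known, and non-overlap was counted after values were seen. The series text gives 3 activated and 2 resting samples where the sample labels give 2 and 3; the labels were followed.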

Additional observations from a re-analysis of the deposited data

How the results depend on the processing

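Summed shares moved by less than the SD between replicates in every alternative run. With 1 library left out the mean ranged from 1.88% to 2.38% for male “wannabes” and from 1.25% to 1.48% for rescued Treg cells. Arithmetic keeps such a move below that SD, so it shows no stability. The comparison of rescued with control Treg cells and the test of the difference gave 0 genes in every alternative, including the replicate block and each library left out. For control Treg cells against male “wannabes” the count of 11 was 28 with DESeq2 (25.6% of all genes), 17 without the filter, 1 (higher) when scaled to the summed members, and 2 to 36 with 1 library left out, and the median was 0.0321 when scaled to the members and -0.73 to -0.30 with 1 library left out. For rescued Treg cells against male “wannabes” the count of 37 was 62 with DESeq2 (23.2% of all genes), 3 with only the 2 groups, 1 (higher) when scaled to the members, and 2 to 53 with 1 library left out, and the median was -0.0254 when scaled to the members. For activated against resting “wannabes” the count of 1 was 3 with DESeq2 (26.6% of all genes), 0 when scaled to the members, and 0 to 7 with 1 library left out, and the median was -0.0074 when scaled to the members and 0.06 to 0.19 with 1 library left out. Where a group kept 1 library, that library was assumed to vary like the others. Scaling to the members sets the family's sum equal in all libraries by construction, and split the calls over all genes into 2557 higher and 186 lower for control Treg cells against “wannabes”, from 1480 and 936, into 2864 and 53 for rescued Treg cells, from 1499 and 606, and into 834 and 1385 for activated “wannabes”, from 1489 and 1469. Of the named genes called between rescued Treg cells and “wannabes”, it turned 6 positive, *Rpl10* (0.0468), *Rpl3* (0.0461), *Rpl4* (0.0214), *Rps3* (0.0082), *Rps4x* (0.0028) and *Rpsa* (0.0405). The cause of the other differences was not tested. Apart from DESeq2 and the scaling to the members, shares of all genes called in the alternatives are not given here. Over 33 named results and their alternatives, 319 of 524 values kept direction and call, 199 kept direction without passing and 6 changed sign. The alternatives include the scaling to the members, and the 6 are those named above under it.

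With the replicate number as a block the counts were 3 for control Treg cells against “wannabes”, 19 for rescued Treg cells against “wannabes” and 1 for activated against resting “wannabes”. Shares of all genes called in the blocked fits are not given here, so these counts cannot be set against the background. Libraries of the same number did not deviate together (correlations of -0.0292 to 0.0844 between them), not every library correlated best with its own number, and the numbers are not taken as a pairing. The share without mitochondrial counts was not run, because the tables hold 0 entries of the mitochondrial genome.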
